A study of Mus musculus with 6 samples.

Results

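Of 189470 autosomal regions with counts of 5-hydroxymethylcytosine (5hmC), 621 were at least 2 times higher in both Tet1 knockout (KO) mouse libraries than in both wild-type (WT) libraries, and these 621 are described here. 5hmC is made from methylated cytosine by the Tet enzymes, which comprise Tet1, Tet2 and Tet3. The mark is abundant in the nervous system, where it lies within genes and at regulatory DNA, and it can also be an intermediate in the removal of DNA methylation. Loss of a single Tet enzyme leaves the others in place. A knockout can therefore be examined for sites with more 5hmC signal as well as for sites with less. By dot blot, the paper reports a significantly lower global level of the mark in KO astrocytes. The libraries were scaled here to equal totals, so a higher level in KO means a larger share of the counts. Whether the absolute amount of the mark rose at these regions was not tested.

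Constitutive Tet1 KO mice were compared with WT mice. The labels name brain as the source, whereas the methods of the study describe astrocytes, a glial cell type of the brain, cultured from the cortex and hippocampus of newborn pups. 5hmC was tagged with a modified glucose and biotin and purified, and the purified DNA was sequenced in 2 KO and 2 WT libraries, numbered sample 1 and sample 2 in each genotype. No other allele or agent is named for either genotype, the sex of the mice and the number of mice behind a library are not stated, and nothing says that the 2 libraries of a genotype came from separate animals, so the spread between them may be technical. Read counts were given for 192196 regions, of which 189495 lay on chromosomes 1 to 19.

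The 25 autosomal regions of highest mean count were removed and each library was scaled to CPM, counts for every 1000000 counts in the rest. A region was chosen when the lower of the 2 KO CPM was at least 2 times the higher of the 2 WT CPM and both KO libraries held at least 20 counts. The rule chose 621 of 189470 regions, or 0.328%, and all 621 also passed the low-count filter of the genome-wide test. The measured values themselves chose these regions, so their difference between genotypes is described and supports no test. Coordinates are those of the count table, which the processing notes of the submitters assign to the mouse build mm9. Regions on 9 of 19 autosomes reached past the last base that GRCm38, the build of the annotation at hand, has for that chromosome. Genes, exons and DNA sequences were therefore not assigned to the regions, and neither the Tet1 gene nor the marker genes of astrocytes were examined.

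Total counts ranged from 16819455 to 19288900 per library. The 25 removed regions took 11.5% of counts in KO sample 1 and 17.8% in WT sample 1, but 36.5% in KO sample 2 and 34.1% in WT sample 2. For the scaling there remained 15284169 and 11921429 counts in KO samples 1 and 2, and 13712816 and 12611395 counts in WT samples 1 and 2. A single count was thus worth most in KO sample 2, where 3 counts, taken as the floor of detection, equalled 0.252 CPM, against 0.196 to 0.238 CPM in the other libraries. KO sample 2 also stood apart on chromosome Y, with 46 counts against 1765 in KO sample 1 and 4420 and 5353 in the WT libraries. Chromosome Y is outside the regions described here, and the part of this difference in the results was not tested.

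First, the levels of the 621 regions were examined. In KO sample 1 the regions held from 20 to 450 counts with a median of 48, and in KO sample 2 from 20 to 368 with a median of 44. In WT sample 1 they held from 0 to 180 counts with a median of 15, and in WT sample 2 from 0 to 170 with a median of 14. After scaling, the median was 3.14 and 3.69 CPM in KO samples 1 and 2, against 1.09 and 1.11 CPM in WT samples 1 and 2. By the rule, the genotypes did not overlap in any of the regions. Both KO CPM were above both WT CPM, at any size of difference, in 26996 of 189470 autosomal regions, or 14.2%. The 621 could come only from the 133495 regions with at least 20 counts in both KO libraries. Of these, 24926, or 18.7%, had both KO CPM at or above both WT CPM, which is the like background for the 621.

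The difference was mostly a few-fold. The ratio of the mean KO to the mean WT level had a median of 3.06 with quartiles of 2.62 and 3.85, over 620 regions with any WT count. The ratio of the lower KO to the higher WT level, the measure of the rule, with a WT library under 3 counts set to 3, had a median of 2.27 and an upper quartile of 2.69. It reached 2.5 in 217 regions, 3 in 96, 4 in 34 and 5 in 17. Counting error alone left this ratio imprecise. Its exact 95% interval, conditional on the summed counts, stood wholly above 1 in 597 of 621 regions, and wholly at or above 2 in 37. The rule had chosen the regions by these same counts, so most intervals above 1 followed from the choice and carry no support. Intervals here cover counting error only and leave out variation between libraries. Reads copied in amplification are not independent molecules, so counting error itself may be larger than the intervals show.

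**Figure D1:**
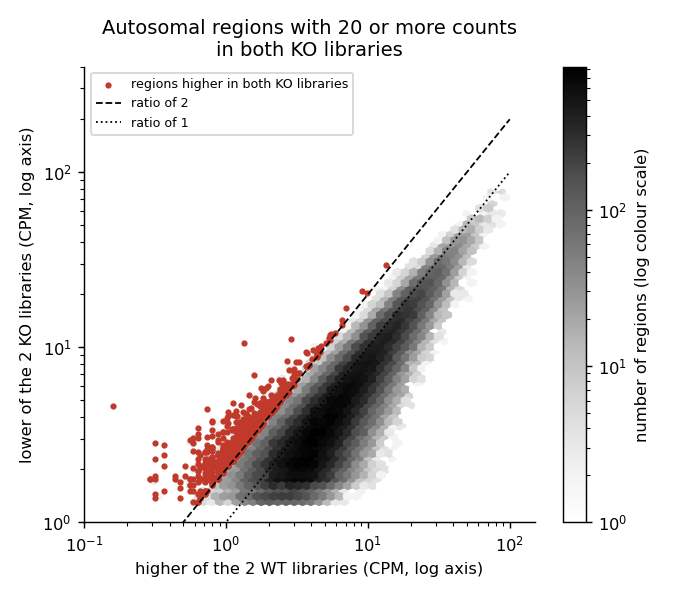
Lower of the 2 KO libraries (vertical axis, CPM) against the higher of the 2 WT libraries (horizontal axis, CPM), both on log axes, for autosomal regions with at least 20 counts in both KO libraries. Grey shading gives the number of regions per cell, red points the regions of the rule and the lines ratios of 2 and 1. The red points lie along the low edge of the signal, with a median of 1.19 CPM for the higher WT library. One region with 0 counts in both WT libraries cannot be drawn on a log axis.

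The threshold cut through a continuous range. Just inside it, chr10:62040171-62040536 had 52 and 40 counts in KO samples 1 and 2 and 23 and 20 in WT samples 1 and 2, a ratio of 2.0005. The region chr11:102051461-102051758 had 29 and 35 counts in KO, against 13 and 4 in WT, and chr1:90813015-90813663 had 80 and 54 in KO, against 31 and 12 in WT. Just outside it, chr2:121107633-121108097 had 49 and 47 counts in KO, against 22 and 14 in WT, a ratio of 1.998. The next were chr4:117309539-117310151, with 98 and 100 counts in KO, against 44 and 38 in WT, and chr1:39707993-39708254, with 44 and 34 in KO, against 13 and 18 in WT.

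Next, the number of regions was compared with that of a crossed split, in which KO sample 1 and WT sample 2 were set against KO sample 2 and WT sample 1 under the same rule. This split mixes the genotypes, so the rule finds regions there without a genotype contrast. A region passes only if the 2 libraries of each genotype differ at least 2-fold, so its numbers depend on the spread within genotypes. Both KO sample 1 and WT sample 2 were higher in 742 regions, which is more than the 621 of the genotype split. KO sample 2 and WT sample 1 were both higher in 257 regions, which is fewer. The reverse genotype contrast, with both WT libraries higher, gave 755 regions. The minimum of 20 counts falls on different libraries in each direction. It was met by 133495 regions for KO higher and 147369 for WT higher, and by 149073 and 132123 in the crossed directions. Of these, the rule chose 0.465% and 0.512% by genotype, and 0.498% and 0.195% crossed. At a ratio of 2, the number of regions higher in KO thus lay between those of the crossed directions and showed no excess over the larger of them. The order depended on the scaling and the count minimum. With CPM of all counts and no region removed, there were 775 regions higher in both KO libraries against 610 and 260 in the crossed directions. With a minimum of 40 counts they numbered 318 against 271 and 100. The number higher in KO stayed below the larger crossed direction with a minimum of 10 counts (682 against 950), with TMM sizes (613 against 644) and with DESeq2 size factors (643 against 651).

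The order also changed with the size of the ratio. At a ratio of 1.5 there were 2911 regions higher in KO against 3622 and 1681 in the crossed directions. At 2.5 the numbers were 217 against 204 and 45. At 3 there were 96 regions higher in KO and 92 lower in KO, against 76 and 12 in the crossed directions. At 4 there were 34 and 36 by genotype and 21 and 0 crossed, and at 5 there were 17 and 15 by genotype and 8 and 0 crossed. Summed over directions, the genotype split gave 1.38 times as many regions as the crossed split at a ratio of 2, 2.14 times as many at 3 and 4 times as many at 5. The last of these rests on 32 regions against 8. A single crossed split was made, so these ratios carry no error, and the split of the samples numbered 1 from those numbered 2 was not made.

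**Figure D2:**
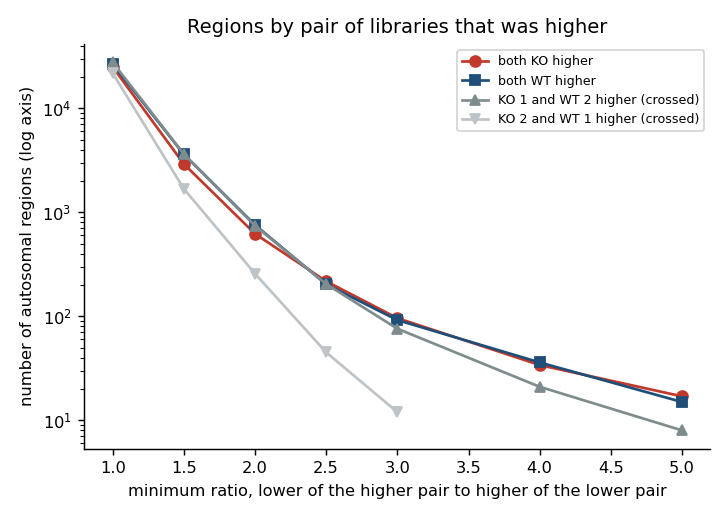
Number of autosomal regions (vertical, log axis) at or above each minimum ratio between the lower library of the higher pair and the higher library of the other pair (horizontal). Lines stand for the 4 pairs of libraries that can be higher in the genotype split and the crossed split. The line for both KO libraries lies between the crossed lines at a ratio of 2 (621 against 742 and 257) and above both at 3 (96 against 76 and 12). The lowest line ends at 3 because it has 0 regions at 4.

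The choice rested on each of the libraries. Without KO sample 1 the rule gave 6346 regions and without KO sample 2 it gave 4063. Without WT sample 1 it gave 2923 regions and without WT sample 2 it gave 2651. Each of these sets holds all 621 regions, since a condition is dropped. The KO library that was nearer to the threshold was sample 1 in 447 of 621 regions (72.0%), whereas KO sample 1 was the lower in 53.0% of the 133495 autosomal regions with at least 20 counts in both KO libraries. In WT, sample 1 was the lower in 51.2% of the 621.

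To see how the regions stand in a test across the genome, all 4 libraries were fitted with edgeR's quasi-likelihood test over 176957 regions. Of the 621, 0 passed at an adjusted p under 0.05 by this test with Benjamini-Hochberg adjustment, and the background of regions called higher in KO was 0%. The lowest adjusted p among them was 0.132. At an unadjusted p under 0.05 there were 497 of the 621, beside 2730 regions higher in KO among all tested, or 1.54%. The rule used the same contrast, so these counts carry no independent support. The number called over the whole table depended on the libraries kept, with 13450 without KO sample 1, 1944 without KO sample 2, 9 without WT sample 1 and 7 without WT sample 2. Without the low-count filter, edgeR called 2 of the 621, chr5:123334556-123335064 and chr6:114564499-114564775, beside a background of 0.00104%. With the sample number as a block, 20 of the 621 passed, beside a background of 0.0147%. The labels link the libraries so paired only by number. The removed regions of highest count took 36.5% and 34.1% of counts in KO sample 2 and WT sample 2. In KO sample 1 and WT sample 1 they took 11.5% and 17.8%. Libraries of the same number were thus nearer to each other in this share than libraries of the same genotype. With DESeq2, 5 of the 621 passed at an adjusted p under 0.05, beside a background of 0.00339%. Those 5 were a pair on chromosome 5, the region of chromosome 6 described next, chr15:97597021-97597870 and chr18:66157410-66158446. On chromosome 15 the counts were 106 and 124 in KO, against 15 and 20 in WT, and on chromosome 18 they were 170 and 164 in KO, against 30 and 36 in WT. In CPM, the KO libraries stood at 6.94 and 10.4 on chromosome 15 and at 11.1 and 13.8 on chromosome 18, and the WT libraries at 1.09 and 1.59 and at 2.19 and 2.85.

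The 12 regions of largest ratio were then described one by one. The largest was chr5:123334556-123335064, which had 70 and 118 counts in KO samples 1 and 2, against 0 and 2 counts in WT samples 1 and 2. Its lower KO level was 28.9 times its higher WT level, with a counting interval from 7.70 to 243 that reflects the 2 WT counts. With WT set to the floor of 3 counts, the value that ordered the regions, the ratio was 19.3. Some 2 kb away, chr5:123337125-123337784 had 78 and 29 counts in KO and 0 in both WT libraries. With 3 counts per WT library taken as the floor, its ratio was 10.2, and the counting interval on the 0 WT counts began at 8.48. Among the 621 regions it was the only one with 0 counts in both WT libraries, and 6 had 0 counts in at least 1 of them. The adjusted p by edgeR was 0.132 for the first of the pair and 0.920 for the second.

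Most of the regions around this pair did not show the same difference. Within 100 kb of the first region lay 20 regions that the rule did not choose, of which 6 had both KO libraries above both WT libraries, against 14.2% of all autosomal regions. Their median log2 ratio of KO to WT, taken on CPM plus 0.1, leaned towards KO, at 0.23 in sample 1 and 0.16 in sample 2. The nearest, chr5:123342610-123342789, had 5 and 1 counts in KO, against 2 and 1 in WT, near the floor in all libraries. On the other side, chr5:123301009-123301315 had 73 and 38 counts in KO, against 34 and 31 in WT, and chr5:123248794-123250684 had 332 and 280 in KO, against 291 and 313 in WT. Another region of the rule, chr5:123401644-123401999, lay 67.0 kb from the first and had 41 and 32 counts in KO, against 11 and 4 in WT. WT reads were thus recovered on both sides of the pair, and in most of the surrounding regions the genotypes overlapped or WT was higher.

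The region of highest 5hmC level per length among the 621 was chr6:114564499-114564775, the fourth in order of ratio. It is 277 bp wide and had 161 and 167 counts in KO samples 1 and 2, against 16 and 17 in WT samples 1 and 2. The level was 12.3 ± 2.46 CPM (SD, n = 2) in KO, against 1.26 ± 0.128 CPM (SD, n = 2) in WT. Its ratio of 7.81 had a counting interval from 4.73 to 13.7, and its log2 fold change by edgeR was 3.31 with a standard error of 0.43 and an adjusted p of 0.132. Per length, the KO mean was 44.3 CPM per kb, against a median of 9.43 over the 621 regions. The WT mean was 4.54 CPM per kb. Within 100 kb, 25 other regions were counted, and 1 of them had both KO libraries above both WT libraries. Their median log2 ratio of KO to WT, taken on CPM plus 0.1, was -0.45 in sample 1 and -0.85 in sample 2. The region was therefore high in KO in a neighbourhood whose other regions were mostly lower in KO. The region next to it, chr6:114566325-114566642, had 33 and 14 counts in KO, against 51 and 60 in WT.

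**Figure D3:**
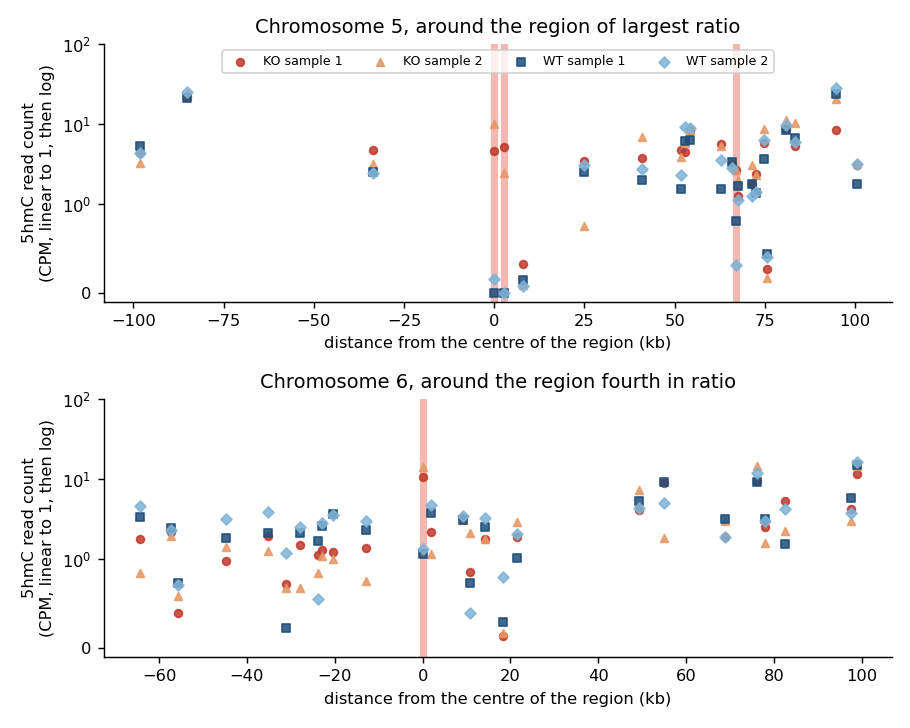
5hmC level (CPM, linear up to 1 and logarithmic above) of each region within 100 kb of chr5:123334556-123335064 (top) and chr6:114564499-114564775 (bottom) by distance from its centre in kb, with 1 symbol per library. Pink bands mark regions chosen by the rule. Both WT libraries are at or near 0 in the 2 adjacent bands of chromosome 5, and the KO symbols stand above the WT symbols in the band of chromosome 6 but below them in most of the regions to its left.

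The other 9 regions of largest ratio had low WT counts, at most 10 in either WT library, as a choice by large ratio favours. The third, chr9:66561853-66562231, had 43 and 50 counts in KO and 4 in each WT library, a ratio of 8.87 with a counting interval from 3.22 to 34.0. The fifth, chr15:41135027-41135560, had 48 and 33 counts in KO, against 5 and 4 in WT, and the sixth, chr19:41459187-41459697, had 35 and 47 in KO, against 2 and 4 in WT. In these 3 regions the WT libraries lay close to the floor of detection. The eighth, chr7:107065801-107066316, had 68 and 59 counts in KO, against 10 and 8 in WT. The level was 4.70 ± 0.354 CPM (SD, n = 2) in KO, against 0.682 ± 0.0671 CPM (SD, n = 2) in WT. Its KO libraries differed little from each other and its ratio was 6.10. The seventh was chr6:135446460-135446715, with 37 and 35 counts in KO, against 5 and 2 in WT.

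On chromosome 4, chr4:123954341-123954606 had 27 counts in each KO library and 4 and 2 in WT, and chr4:134712162-134712441 had 27 and 40 in KO, against 4 and 1 in WT. Both had a ratio of 6.06 with a counting interval from 2.11 to 23.8. The eleventh, chr13:53570387-53570686, had 28 and 46 counts in KO, against 3 and 4 in WT, and the twelfth, chr12:82889645-82889952, had 32 and 38 in KO, against 5 and 4 in WT. The region on chromosome 13 had neighbours that differed between libraries of the same genotype. Over 24 other regions within 100 kb, the median was 3.17 and 5.37 CPM in KO samples 1 and 2. In WT samples 1 and 2 it was 3.21 and 2.18 CPM. The median log2 ratio of KO to WT was 0.02 in sample 1 and 1.21 in sample 2. The gap between these 2 ratios depends on pairing the libraries by number, and a paired design is not stated. By edgeR, the log2 fold changes of the 12 regions, leaving aside the pair on chromosome 5, ranged from 2.79 to 3.74, and their adjusted p was 0.132 for the region on chromosome 6 and 1.00 for the rest.

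**Figure D4:**
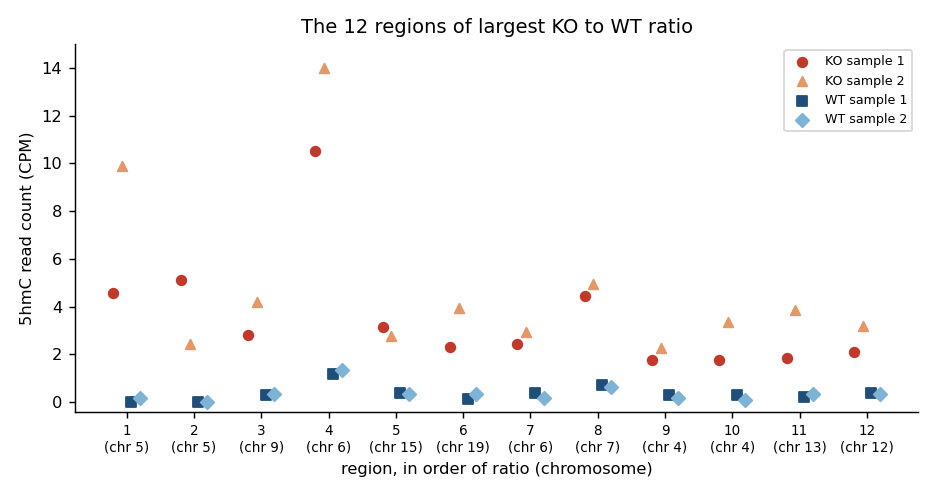
5hmC level (CPM, linear axis) in each of the 4 libraries for the 12 regions of largest ratio, numbered in order of ratio with their chromosome. Each symbol is 1 library. The WT libraries lie between 0 and 1.35 CPM, and the KO libraries between 1.77 and 14.0 CPM. The 2 KO libraries are furthest apart in regions 1 and 4.

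The regions of highest level had smaller ratios. The highest, chr5:118963127-118965060, is 1934 bp wide and is also the widest of the 621. It had 450 and 368 counts in KO, against 180 and 170 in WT. The level was 30.2 ± 1.01 CPM (SD, n = 2) in KO, against 13.3 ± 0.250 CPM (SD, n = 2) in WT. Its ratio of 2.18 had a counting interval from 1.83 to 2.62. The spread within each genotype was small beside the difference between them, which the rule favours, so it carries no support.

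The region chr8:84925989-84927640 had 321 and 272 counts in KO, against 101 and 114 in WT. In chr13:31276359-31277666 the KO libraries had 315 and 244 counts, or 20.5 ± 0.101 CPM (SD, n = 2), and the WT libraries 72 and 124, or 7.54 ± 3.24 CPM (SD, n = 2). The KO libraries nearly coincided there while the WT libraries differed from each other. The region chr15:97548226-97549039 had 257 and 236 counts in KO, against 89 and 88 in WT, and it lies near chr15:97597021-97597870, one of those called by DESeq2. The next were chr6:31263959-31264852 with 217 and 176 counts in KO, against 90 and 78 in WT, and chr11:62633550-62634856 with 203 and 236 in KO, against 69 and 83 in WT. The last of the 8 were chr7:73533600-73534238, with 184 and 167 in KO, against 81 and 66 in WT, and chr2:173431230-173432361, with 181 and 168 in KO and 69 in each WT library. Ratios of these 8 regions ranged from 2.02 to 2.41. Their log2 fold changes by edgeR ranged from 1.21 to 1.54, with an adjusted p of 1.00 for each.

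The regions were next compared with autosomal regions that had at least 20 counts in both KO libraries, on features that the rule did not name. The 621 had a median width of 359 bp with quartiles of 292 and 480, against 544 bp over the 133495 regions. Of the 621, 12 (1.93%) were wider than 1 kb, against 15.3% of the 133495, and 0 were wider than 2 kb. Narrow regions hold few counts, and the count of a region bears on how readily it passes a ratio. Regions of the other splits were also narrow, with medians of 314 bp for those lower in both KO libraries and 306 and 324 bp for the crossed directions. By median, the 621 were the widest of these 4 sets, and all 4 were narrower than the 133495 regions.

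The share chosen varied with depth. Of regions whose lower KO count was 20 to 29, 127 of 27585 (0.460%) were chosen, and at 30 to 49 counts 284 of 38953 (0.729%). At 50 to 99 counts it was 176 of 38508 (0.457%), and at 100 or more 34 of 28449 (0.120%). The regions of greatest depth were thus chosen least often. Per length, the median WT level of the 621 was 3.02 CPM per kb, against 8.82 over the 133495 regions, whereas their KO level was 9.43 CPM per kb against 9.06. The regions had a usual KO density and a low WT density, as the rule favours. Regions lower in both KO libraries mirrored this, with 9.95 CPM per kb in WT and 3.18 in KO.

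The KO libraries lay closer together in the chosen regions than in the 133495 regions, whereas the WT libraries did not. The higher KO level was a median of 1.25 times the lower, against 1.41 in the 133495 regions, and in WT 1.25 against 1.24. The 2 KO libraries were within 1.5-fold of each other in 467 of 621 regions (75.2%), against 57.1% of the 133495. A rule that takes the lower KO library selects for such closeness.

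The regions were spread over all autosomes. The share of a chromosome's regions that was chosen ranged from 0.217% on chromosome 8 (23 of 10620) to 0.444% on chromosome 4 (56 of 12601), with 0.443% on chromosome 7 (46 of 10383). Chromosome 19 had 0.420% (23 of 5480), chromosome 11 had 0.412% (48 of 11643) and chromosome 5 had 0.400% (47 of 11756). Chromosome 10, which carries Tet1, had 32 of 9908 regions, or 0.323%, close to 0.328% over all autosomes. With each chromosome divided into 3 equal stretches, 150 regions lay in the first, 202 in the middle and 269 in the last (43.3%), where 41.3% of the regions with at least 20 counts in both KO libraries lay. Shares by chromosome were not tested.

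**Figure D5:**
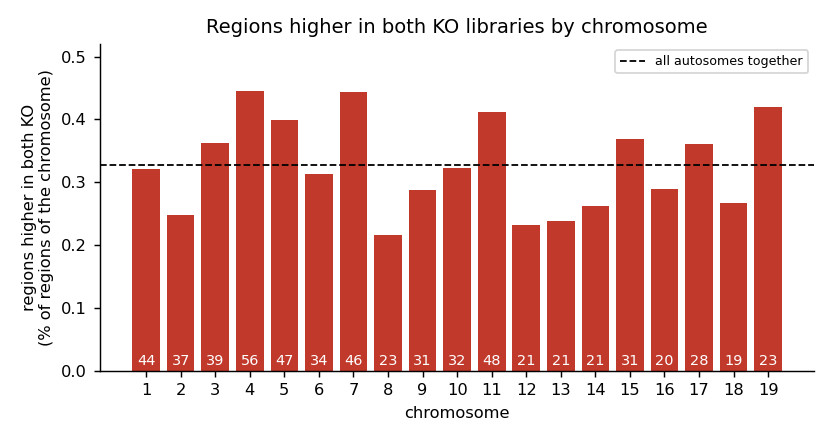
Share of each autosome's regions that were higher in both KO libraries (vertical, percent), with the number of such regions printed in each bar. The dashed line is the share over all autosomes, 0.328%. Chromosomes 4 and 7 stand highest and chromosome 8 lowest.

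Next, the distance between chosen regions was examined. Of the 621, 18 (2.90%) had another within 10 kb, and they formed 9 pairs and no larger group. The rule chose 0.328% of autosomal regions, so few chosen neighbours could be found at any spacing. Whether the 621 lay nearer to each other than this share would give was not tested. The median distance to the nearest region of any kind was 1656 bp, so most had a close neighbour that was not chosen. By summed level, the first pair was chr7:26098355-26098630, with 34 and 25 counts in KO, against 11 and 9 in WT, and chr7:26102528-26103053, with 119 and 95 in KO and 46 in each WT library. The second pair was chr4:142938720-142939145, with 74 and 85 counts in KO, against 33 and 25 in WT, and chr4:142940322-142940950, with 69 and 125 in KO, against 14 and 19 in WT. Directly beside this pair, chr4:142938492-142938718 had 28 counts in each KO library and 27 and 21 in WT, so the difference did not extend to it. The third pair was chr5:144132242-144133183, with 92 and 125 counts in KO, against 30 and 32 in WT, and chr5:144134450-144134917, with 42 and 43 in KO, against 9 and 15 in WT. A further region of the rule, chr5:144075663-144075969, lay 57.8 kb from the centre of this pair and had 63 and 53 counts in KO, against 22 and 14 in WT.

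Regions near the 621 leaned in the same direction. Among 441 regions that averaged 20 counts or more and lay under 2 kb from a chosen region, the median log2 difference of KO from WT was 0.07 with quartiles of -0.24 and 0.40, against -0.04 over all such regions. At gaps of 5 to 10 kb it was 0.06 over 781 regions, at 20 to 50 kb 0.03 over 4276, and beyond 100 kb -0.05 over 150564. The lean was small beside the quartiles. Neighbours of the crossed regions leaned towards their own contrast as well. Under 2 kb, the shift from the median of all regions was 0.11 beside the 621, 0.15 beside regions higher in KO sample 1 and WT sample 2, 0.13 beside those higher in KO sample 2 and WT sample 1, and 0.09 beside those lower in both KO libraries. The contrasts share libraries, so these values are set side by side and were not compared by a test.

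A stretch of chromosome 6, chosen after the values were seen, held the most regions of any window of 5 Mb. From 135 to 140 Mb on chromosome 6, 8 of 420 regions were higher in both KO libraries and 0 lower in both. Windows of the crossed split held at most 8 and 4 regions, and windows of regions lower in KO at most 12, among 504 windows. Including those just before the window, 10 regions lay between 133975656 and 137931861, where 566 regions were counted. This is 1.77% of the stretch, against 0.233% of the rest of chromosome 6. The bounds are the start of the first and the end of the last of these 10 regions, so the choice of the stretch raised its share. The stretch also held 3 regions lower in both KO libraries and 2 and 0 of the crossed directions.

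The 10 regions of the stretch differed in ratio. The seventh of the largest ratios lies among them, and chr6:133975656-133975992 had a ratio of 5.47, with 53 and 42 counts in KO and 8 in each WT library. In chr6:136352877-136353147 there were 57 and 45 counts in KO, against 6 and 10 in WT, and in chr6:135213159-135213771 there were 128 and 109 in KO, against 33 and 34 in WT. The others had ratios from 2.11 to 3.66. Most of the remaining 556 regions of the stretch did not share this difference. Both KO libraries were above both WT libraries in 16.2% of them and below in 17.1%, against 14.2% and 17.2% in chromosome 6 outside the stretch. The summed level of the 556 was 3088 and 3016 CPM in KO samples 1 and 2 and 3133 and 3124 CPM in WT samples 1 and 2. In the window from 135 to 140 Mb, regions not chosen had both KO libraries above both WT libraries in 17.7% and below in 17.7%. The medians over 459 windows with at least 100 such regions were 13.4% and 17.0%. The gathering was therefore of single regions among others that mostly did not share the difference.

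The next windows were on chromosome 5 from 115 to 120 Mb, with 6 of 684 regions higher and 7 lower in both KO libraries, and on chromosome 7 from 140 to 145 Mb, with 6 of 733 higher and 0 lower. In the window of chromosome 7, the other regions leaned towards KO too. Both KO libraries were above both WT libraries in 21.2% of them, against a median of 13.4% over 459 windows with at least 100 such regions. The window before it, from 135 to 140 Mb, had the highest share of all, 21.7%, and held 0 of the 621 regions. The share of regions leaning towards KO and the number chosen by the rule thus did not rank these windows alike.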

How the data were processed

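The deposited values were unnormalized counts of reads, 1 whole number for each region and each of the 4 5hmC libraries. The submitters' processing notes name mm9 and Bowtie2 2.2.6. How regions were defined and counted, and the treatment of duplicate and multiply placed reads, are not given in the sources used here. Such reads can raise counts in repeated sequence. The 2 input libraries were not analysed here.

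Libraries were grouped by genotype from their titles. The rule, its threshold, the regions described and all lists were chosen with earlier results of these data known. Named were the 12 regions of largest ratio (a WT library under 3 counts set to 3), the 8 of highest lower KO level, 3 on either side of the threshold and the 3 leading groups within 10 kb. Intervals of ratios are exact binomial (SciPy 1.17.1, 95%).

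edgeR 4.0.16 in R 4.3.3 was run with TMM scaling, filterByExpr and no replicate block. It was tested on simulated data. DESeq2 1.42.0, other scalings, filters and ratios, and leaving out each library were tried. Ratios of 2.5, 4 and 5 and removal of the 25 regions over all chromosomes were added after the data were seen.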

Additional observations from a re-analysis of the deposited data

Results flagged for a closer look

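Chromosome X was outside the rule, and regions there also met it. With the autosomal scaling, 13 of 2637 regions on chromosome X (0.493%) were higher in both KO libraries by the same ratio and count minimum, against 0.328% of autosomal regions. In the other direction 36 (1.37%) were lower in both KO libraries, against 0.398% of autosomal regions. The crossed directions gave 5 and 2 regions on chromosome X. On chromosome Y, 0 of 56 regions were higher in both KO libraries and 21 were lower in both. KO sample 2 held 46 counts on chromosome Y, and the part of the makeup of that library in the values of chromosome X was not tested.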

How the results depend on the processing

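The number of regions higher in both KO libraries stayed within 1.5 times of 621 with TMM sizes (613, of which 558 were among the 621), DESeq2 size factors (643, 575 among the 621), no region removed (775, 462 among the 621), 100 regions removed (621), the 25 removed over all chromosomes (625) and a minimum of 10 counts (682). It was 2911 at a ratio of 1.5, 217 at 2.5, 96 at 3, 34 at 4, 17 at 5, and 318 with a minimum of 40 counts. Leaving out a library gave 2651 to 6346, because a condition of the rule is dropped. The crossed direction with KO sample 1 and WT sample 2 higher gave 3622, 204, 76, 21, 8 and 271 in the same order, and 644 with TMM sizes. The other crossed direction gave 1681, 45, 12, 0, 0 and 100. The count of 0 regions called by edgeR (4976 at an unadjusted p under 0.05) was also 0 with total-count scaling and when a mean of 20 counts or more was required. The number was 2 without the low-count filter (both among the 621), 6 with DESeq2, and 7 to 13450 when a library was left out, namely 13450 and 1944 without KO samples 1 and 2 and 9 and 7 without WT samples 1 and 2. A genotype is then left with a single library that is assumed to vary like the other genotype. Entering the sample number in the fit as a replicate block gave 79 called regions, of which 26 had higher signal in KO and 20 were among the 621. The labels give these 2 pairs only a shared number, and the correlation of deviations was 0.164. A paired design is not stated, so this fit cannot be read as one. The named regions were chosen by this contrast, or lay at its threshold, so their keeping one direction in these fits was fixed by the choice. What caused these changes was not tested. Depth limits the choice at the minimum of 20 counts in both KO libraries, which 133495 of the 189470 regions reached.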
